A study of Mus musculus with 12 samples.

Results

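The response of wild-type mouse liver to the pentapeptide IIAEK was read from 6 of the 12 liver arrays of the study, 3 from mice given IIAEK and 3 from mice given vehicle. The arrays were chosen by their sample titles, with no measured value used. All 12 mice were males of 7 weeks, dosed by mouth daily over 14 days, and their livers were collected after a fast of 8 h. Vehicle mice received carboxymethylcellulose sodium salt at 5 g/L (0 mg/kg per day of peptide), and treated mice 600 mg/kg per day of the peptide, a chain of isoleucine, isoleucine, alanine, glutamate and lysine. For the treated mice, 1 label field gives the length of treatment in weeks, while the titles and the design give days, and days were used. The remaining 6 mice lacked Akp3 (Akp3-/-, called IAP-KO in the labels) and received the same 2 treatments, 3 mice each, and they enter here as a side comparison and in the shared estimate of spread. Each array held RNA from whole liver, so all its cell types are read together. The strain of the mice was not given in the sources used here.

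IIAEK is a peptide of milk beta-lactoglobulin that is known for lowering cholesterol. Intestinal alkaline phosphatase, the product of Akp3 in the mouse, sits on the brush border of the small intestine and removes phosphate from lipids and from bacterial endotoxin. The liver receives blood from the gut, makes bile acids from cholesterol, and clears drugs, peptides and endotoxin, so the wild-type arrays show liver transcription after oral peptide where the intestinal enzyme is present. Both Akp3 probes and the Slc15a1 probe (a transporter of small peptides) were well above background on 0 of 12 arrays, and the related gene Alpi was so on 1 of 12, so the deletion could not be checked in liver RNA.

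The log2 level of a gene is its processed signal on the log2 scale after the 75th percentile of its array was subtracted. A difference of 1 on this scale is a doubling of signal. The 75th percentile lay between 454 and 722 signal units over the 6 wild-type arrays, 56.8% to 61.9% of their probes were well above background, and 0 spots were saturated. The number of arrays limits the precision. Mouse 1 of every group was on slide 1 and mice 2 and 3 on slide 2, and each slide had its own scan day, so these cannot be told apart.

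Vehicle mouse 1 stood apart from vehicle mice 2 and 3. The first principal component of the 6 wild-type arrays carried 65.0% of the variance and put vehicle 2 and 3 at 90.1 and 91.5, vehicle 1 at -55.9, and IIAEK 1, 2 and 3 at -49.8, -50.6 and -25.2. Across genes, vehicle 1 correlated with the mean of the IIAEK arrays at 0.990 and with the mean of vehicle 2 and 3 at 0.956, as a description over 26397 genes of shared arrays. Transcripts of neighbouring organs differed between mice too. The 17 tested genes of the pancreas list (of 26 on the array) deviated from their 6-mouse mean by a median of 2.20 in vehicle 1, and those of the small intestine list by 0.81, 2.55 and 0.22 in vehicle 1, 2 and 3 and by -0.79, -0.45 and -1.78 in IIAEK 1, 2 and 3. Changes are therefore given within each slide as well, with slide 1 resting on 1 mouse per group.

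One gene, Tagln, passed the threshold of 0.05 on the adjusted p of limma (Benjamini-Hochberg over 26397 genes), which is 0.00379% of the genes tested. At an unadjusted p under 0.05 stood 1518 genes with higher values in IIAEK mice (5.75%) and 1797 with lower values (6.81%). In 1869 genes (7.08%) all 3 IIAEK mice were above all 3 vehicle mice, and in 1545 genes (5.85%) all 3 were below. The fitted change was above 0 in 53.7% of all genes and below 0 in 46.3%, with a median of 0.03. Without vehicle 1, 1715 genes were called higher (6.50%) and 2194 lower (8.31%), and without any other wild-type array at most 1 gene was called. Over all 12 arrays, wild-type vehicle 2 and 3 and knockout vehicle 1 and 3 lay together on the first component. Without these 4, which leaves vehicle 1 as the wild-type control (assumed to vary like the other groups), 1 gene was called and it was not Tagln.

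Tagln encodes transgelin, which binds actin filaments in smooth muscle and in fibroblasts that contract. Its log2 level was 3.59, 3.43 and 3.42 in vehicle mice 1, 2 and 3 and 1.95, 2.28 and 1.92 in IIAEK mice 1, 2 and 3. The groups lay far apart and vehicle 1 was the highest of the 6. Tagln fell from 3.48 ± 0.09 to 2.05 ± 0.20 (SD, n = 3 each), a change of -1.43 (SE 0.15, limma adjusted p = 0.0318) or 2.69-fold. The change was -1.63 on slide 1 and -1.33 on slide 2. With the slide added as a block Tagln no longer passed (adjusted p = 0.0704), nor did it on slide 2 by itself (0.111). The adjusted p ran from 0.00426 to 0.530 over the alternatives.

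No other contractile gene passed the test. Of 19 tested genes of the smooth muscle and contractile list, 15 had lower and 4 higher fitted values (median -0.43, against 0.03 over all genes), and 4 lower and 1 higher had an unadjusted p under 0.05 (6.81% and 5.75% of all genes). Calponin (Cnn1), which binds actin in smooth muscle, had levels of -3.87, -3.19 and -4.13 in vehicle mice and -6.30, -4.69 and -4.76 in IIAEK mice, with no overlap (change -1.52, SE 0.54). Cnn1 was above background on 2 of 3 IIAEK arrays, so its change rests partly on a value below background. Tropomyosin 2 (Tpm2) was the 1 gene of the list with higher values and no overlap (0.84, SE 0.36). The smooth muscle actin Acta2 stood at 1.04, 1.33 and 1.95 in vehicle and 0.79, 1.14 and 1.13 in IIAEK mice (change -0.42, SE 0.26) and the heavy chain Myh11 at a change of -0.43 (SE 0.25), both with overlap. The probes of Acta2 differed in size of change. Another one, also above background on 12 of 12 arrays, gave -1.72, and one above background on 3 of 12 gave -1.10. For Tagln2, the paralog of Tagln, vehicle 1 stood with the IIAEK mice (3.24, against 3.23, 3.34 and 3.55 in IIAEK mice) and vehicle 2 and 3 above (5.43 and 5.90) them, and the LIM protein gene Csrp1 had the same order of mice (2.33, 4.93 and 4.99 in vehicle and 2.43, 2.40 and 2.87 in IIAEK mice). In bulk RNA, fewer cells of a type and less RNA per cell cannot be told apart.

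**Figure D1:**
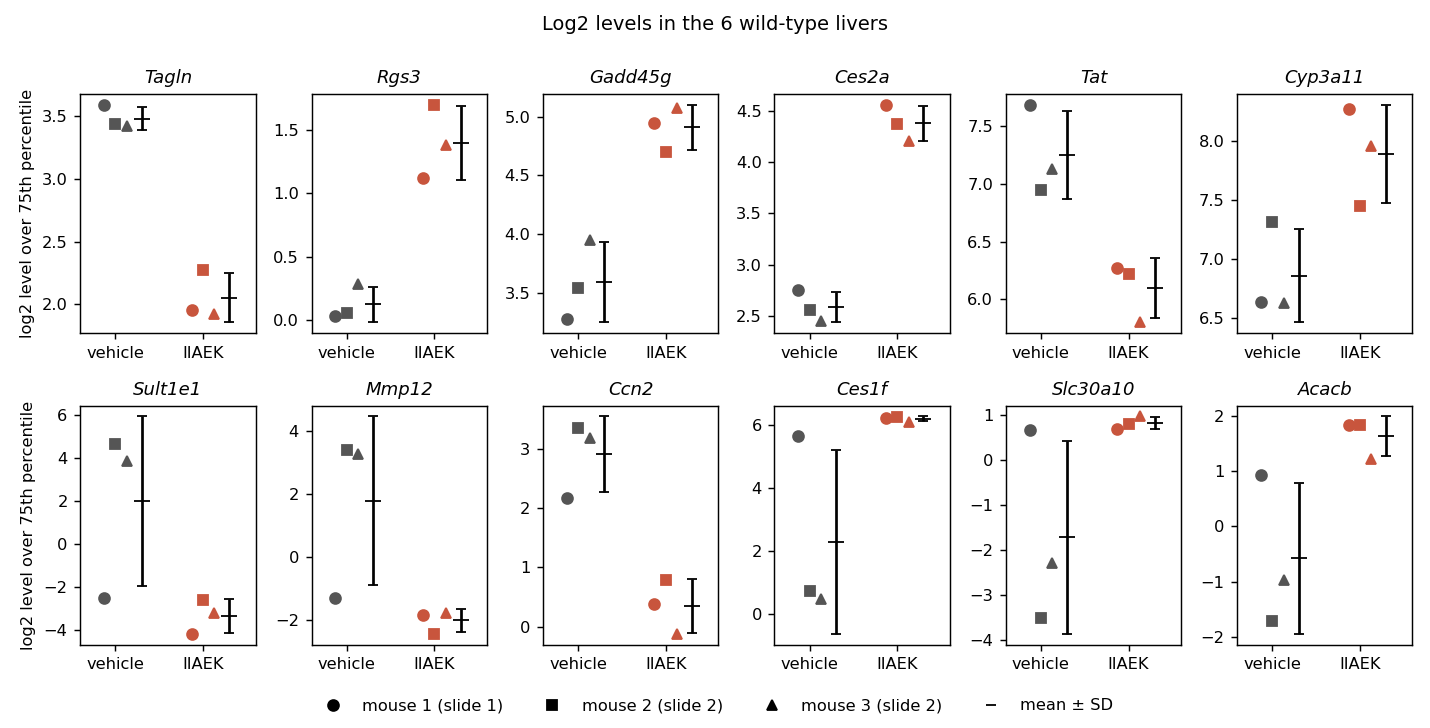
Log2 level of 12 genes in the 6 wild-type livers, 1 panel per gene, with a circle for mouse 1 (slide 1) and a square and triangle for mice 2 and 3 (slide 2), and the mean ± SD beside them (n = 3). In the upper row vehicle mouse 1 stands with the other vehicle mice (Tagln at 3.59, 3.43 and 3.42), and in the lower row it stands nearer the IIAEK mice for Sult1e1, Mmp12, Ces1f, Slc30a10 and Acacb (Ces1f at 5.66, 0.73 and 0.49 in vehicle mice).

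Of the 15 genes with higher values and the smallest p, none passed the adjusted threshold. Rgs3, a GTPase-activating brake on G-protein signalling, stood at 0.03, 0.06 and 0.29 in vehicle mice and 1.12, 1.70 and 1.38 in IIAEK mice, with all IIAEK mice above (change 1.28, SE 0.17, limma adjusted p = 0.15). Its 4 probes gave changes of 0.37 to 1.38. Gadd45g, a growth arrest gene induced by stress and cytokines, stood at 3.27, 3.54 and 3.95 and 4.95, 4.70 and 5.08 (1.32, SE 0.23, adjusted p = 0.395). Both differed by a similar amount on each slide (1.09 and 1.37 for Rgs3, 1.68 and 1.15 for Gadd45g). Transcript A530001N23Rik was above background on 3 of 3 IIAEK arrays and 0 of 3 vehicle arrays, at least 2.64-fold higher (adjusted p = 0.15). Such a bound sets the mean of the brighter group against the lowest signal that counts as well above background. The place of vehicle 1 among the IIAEK mice is given above. Without vehicle 1, 14 of the 15 higher and 15 of the 15 lower genes with the smallest p passed the threshold. Of all genes, 6.50% were called higher and 8.31% lower in that fit. The genes were picked for their p on the same arrays, so these counts are a description and no support.

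The hepatocyte transcription factor Foxa2 stood at 2.61, 1.67 and 2.27 in vehicle mice and 3.27, 3.42 and 3.37 in IIAEK mice (1.17, SE 0.27), so that the IIAEK mice were closer to each other than the vehicle mice were. The water channel Aqp8 of hepatocyte and bile canaliculus membranes stood at 3.30, 3.33 and 2.63 and 4.75, 3.85 and 4.21 (1.19, SE 0.28). Smaller differences without overlap were those of Gatb, a subunit of the mitochondrial enzyme that completes glutaminyl-tRNA (0.65, SE 0.16), Smim1, which carries the Vel blood group antigen (0.90, SE 0.22), Ankrd9 (0.79, SE 0.20) and Tomm6os (0.76, SE 0.18, above background on 2 of 3 vehicle arrays). The potassium channel Kcnk3 was above background on 0 of 3 vehicle arrays and 1 of 3 IIAEK arrays, at least 1.49-fold higher by a mean that rests partly on values below background. The adjusted p was 0.395 for each of these genes.

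Of the 15 genes with lower values and the smallest p, Tagln alone passed. The connexin gene Gja1, which encodes a gap junction protein of stellate and other non-parenchymal liver cells, stood at -3.04, -2.61 and -2.98 in vehicle mice and -4.22, -3.97 and -3.86 in IIAEK mice (-1.14, SE 0.23), and its other probes gave -0.76 and -0.68. The homeobox gene Hoxa5 (-0.68, SE 0.15) and the long noncoding RNA Lncbate1 (-1.18, SE 0.26) had changes of a similar size on both slides (-0.75 and -0.65, and -1.13 and -1.20). Connective tissue growth factor (Ccn2), an early target of YAP and TGF-beta signalling, stood at 2.17, 3.36 and 3.18 in vehicle mice and 0.38, 0.79 and -0.11 in IIAEK mice, one of the larger differences without overlap (-2.55, SE 0.57). Slc37a1, a sugar phosphate transporter gene, differed by -1.49 (SE 0.34) and the protocadherin Pcdhb16, above background on 2 of 3 IIAEK arrays, by -1.12 (SE 0.26). Their adjusted p was 0.395 each.

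Several of the lower genes were above background in vehicle mice alone (on 2 or 3 of the 3 arrays). Mrgpra4, a receptor of the Mas-related family, was at least 2.25-fold lower in IIAEK mice, Sobp at least 2.23-fold, the metalloprotease gene Pappa, whose product cleaves an IGF-binding protein, at least 1.87-fold, and the heat shock gene Hspa1l at least 1.02-fold. Pappa and Hspa1l were above background on 2 vehicle arrays, so their vehicle means rest partly on values below background. Mexis, a noncoding RNA that promotes Abca1 transcription under LXR, was at least 2.46-fold lower, and the cholesterol exporter Abca1 itself stood at 3.48, 3.95 and 4.07 in vehicle and 3.03, 3.47 and 3.1 in IIAEK mice (-0.63, SE 0.21, without overlap). Gnat1, the rod transducin subunit, was above background on 1 of 3 IIAEK arrays, so its fitted change of -2.27 rests partly on values below background.

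Some of the lower genes are genes of the gut. Uroguanylin (Guca2b), a gut peptide, stood at -0.76, 0.36 and -2.21 in vehicle mice and -3.96, -3.23 and -4.15 in IIAEK mice (-2.91, SE 0.66). Mogat2, which rebuilds triglyceride in the enterocyte, stood at -3.24, -0.90 and -1.61 and -4.86, -4.65 and -4.85 (-2.87, SE 0.67). Among the largest differences without overlap were the goblet cell gene Tff3 (-3.37, SE 0.86), the brush border plastin Pls1 (-3.07, SE 1.04) and the mucosal receptor Dmbt1 (-2.96, SE 0.82). Small intestine markers had lower values in the same mice. Of 21 on the array 13 passed the filter, and the remainder, with Alpi and Slc15a1, stayed near background. Of the 13, 9 had lower values (7 without overlap, against 5.85% of all genes) and 4 higher ones. The brush border gene Vil1 stood at -2.63, -0.73 and -3.06 in vehicle mice and -4.72, -3.46 and -5.05 in IIAEK mice, and sucrase-isomaltase (Sis) at -1.63, 0.81 and -3.92 and -4.84, -4.73 and -5.77, so vehicle 2 was the highest mouse for both. Sis was above background on 2 of 3 IIAEK arrays. The mucin Muc2, lactase (Lct) and the lectin Reg3b were above background on 1 of 3 IIAEK arrays each and on 3 of 3 vehicle arrays, so they passed through the group where they were high and the count is no support. The median of the small intestine markers was -2.74 over the 13 that passed, -0.73 over the 8 above background on all 12 arrays and -1.24 over the 13 with the normexp background correction. The 4 markers that were not lower were Lgals4 (0.02), Anpep (0.14), Fabp2 (0.54) and Mttp (0.59). The part of these markers in the lower values of Guca2b, Mogat2, Tff3, Pls1 and Dmbt1 was not tested.

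The genes with the largest differences were mostly not those with the smallest p. On the higher side without overlap, among genes above background on all 6 arrays, stood Ces1f (3.91), Ces1d (2.71), the manganese exporter Slc30a10 (2.54), Spag4 (2.26), Acacb, which makes malonyl-CoA at mitochondria (2.22), Rufy4 (2.19), malic enzyme Me1 (2.10), the kinase Mapk15 (1.97), Gm15401 (1.89) and the lipogenic regulator Thrsp (1.86). The second probe of Acacb gave 0.03 and that of Me1 1.26. On the lower side stood estrogen sulfotransferase Sult1e1 (-5.33), the ubiquitin-like Ubd (-3.86), macrophage elastase Mmp12 (-3.81), the zinc finger gene Egr2 (-3.35), the interleukin 7 receptor Il7r (-3.16) and the muscle gene Myom3 (-2.98), beside Tff3, Pls1 and Dmbt1. Their SE ran up to 1.94 (Sult1e1), and their adjusted p was 0.395 except for Thrsp (0.405). Sult1e1 stood at -2.51, 4.68 and 3.87 in vehicle mice 1, 2 and 3 and at -4.15, -2.6 and -3.20 in IIAEK mice, and Slc30a10 at 0.66, -3.51 and -2.30 and 0.70, 0.81 and 0.97. Vehicle 1 was just outside the range of the IIAEK mice for both, and vehicle 2 and 3 far from it.

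Within slides the genes of smallest p and those of largest change had different patterns. For 11 of the 15 higher and 11 of the 15 lower genes with the smallest p, the change on slide 1 was at least 50% of that on slide 2. This held for 1 of the 10 largest higher and 1 of the 10 largest lower genes (Thrsp and Dmbt1), and for 963 of 1869 and 822 of 1545 of all genes without overlap. For Myom3 the change was -0.02 within slide 1 but -4.46 within slide 2, and for Slc30a10 these values were 0.04 and 3.80. The sets were chosen on the same arrays, so these counts are a description.

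**Figure D2:**
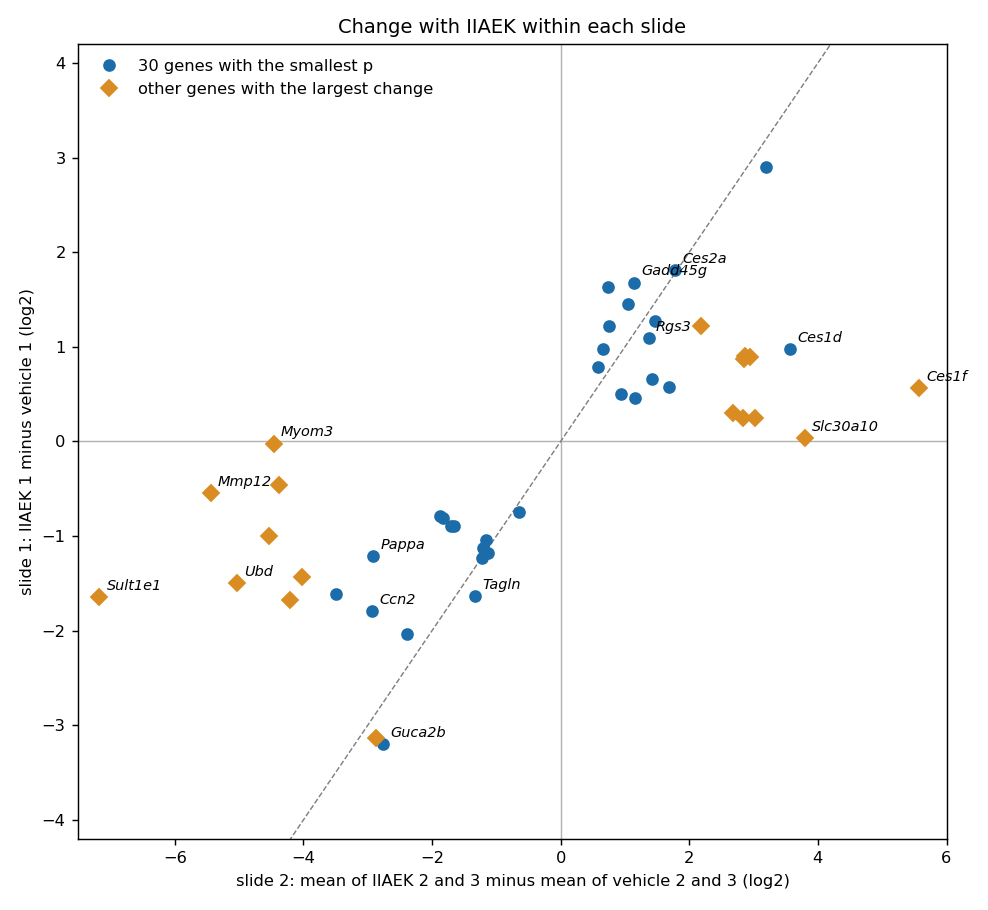
Change with IIAEK on slide 1 (1 mouse per group, vertical axis, log2) against the change on slide 2 (2 mice per group, horizontal axis, log2) for the 30 genes with the smallest p (circles) and other genes with the largest change (diamonds), with the line of equal change dashed. Tagln lies near the line (-1.63 and -1.33), while Ces1f (0.57 and 5.58) and Sult1e1 (-1.64 and -7.17) lie far from it.

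Carboxylesterases, enzymes of the endoplasmic reticulum that cleave esters of drugs and lipids, had higher values in IIAEK mice for 14 of 15 tested genes, 7 of them without overlap (7.08% of all genes) and 0 called (10 at an unadjusted p under 0.05). The median change was 1.07. Ces2a stood at 2.75, 2.56 and 2.45 in vehicle mice and 4.55, 4.37 and 4.21 in IIAEK mice, a difference of 1.79 (SE 0.37, limma adjusted p = 0.395) that was of the same size on both slides (1.81 and 1.78). Ces2f stood at -0.38, -0.73 and -1.07 and 0.89, 0.74 and 0.39 (1.40, SE 0.34), and Ces1g, also known as esterase-x, at 3.38, 2.92 and 3.12 and 3.84, 4.11 and 4.25 (0.92, SE 0.19). Ces2g (0.88) and Ces2e (0.71) were also higher in each IIAEK mouse than in any vehicle mouse. In these 5 genes vehicle 1 stood with or near vehicle 2 and 3.

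Ces1 and Ces3 genes with the larger changes had another pattern. Ces1d, a lipase of hepatocyte lipid droplets, stood at 5.01, 2.75 and 2.28 in vehicle mice and 5.99, 6.11 and 6.06 in IIAEK mice, and Ces1f at 5.66, 0.73 and 0.49 and 6.22, 6.26 and 6.11. Ces3a stood at 8.42, 3.96 and 4.59 and 7.85, 8.17 and 7.51, so vehicle 1 was the highest of all 6 mice. Vehicle 1 was also the highest mouse for Ces3b (5.33) and lay inside the IIAEK range for Ces1e (4.73, against 4.99, 4.83 and 4.59). Ces2b and Ces2c were split within the IIAEK group, with IIAEK 3 the lowest mouse of all 6 for both. Genes of this cluster are close paralogs, and probes may read more than 1 of them. Without vehicle 1, 10 of the 15 were called higher (6.50% of all genes), and the list median was 0.54 on slide 1 and 1.47 on slide 2.

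Genes under the drug-sensing nuclear receptors CAR and PXR, which include Ces1g and 4 of the Ces2 genes above, were higher for 31 of 37 (median 0.63). Without overlap stood 14 in this direction and 0 in the other, against 7.08% and 5.85% of all genes. The test called 0, and 15 higher and 0 lower had an unadjusted p under 0.05 (5.75% and 6.81% of all genes). The median was alike on both slides (0.54 and 0.57). Cyp3a11, the P450 enzyme that PXR ligands induce in mouse liver, stood at 6.63, 7.31 and 6.63 in vehicle mice and 8.27, 7.45 and 7.95 in IIAEK mice (1.03, SE 0.25, adjusted p = 0.395). Its neighbours Cyp3a16 (0.96), Cyp3a59 (0.88), Cyp3a25 (0.67) and Cyp3a41a (0.50) were higher without overlap in the same mice, IIAEK 1 being the highest for each and IIAEK 2 level with or just above vehicle 2 (6.52 and 6.51 for Cyp3a16). These genes are near-identical in sequence and the probes may not tell them apart. The PXR gene itself (Nr1i2) stood at 2.47, 2.05 and 2.31 and 2.72, 2.87 and 2.85 (0.53, SE 0.15), and the glutathione transferases Gstm1 (0.69) and Gstm3 (0.54) and the glucuronosyltransferase Ugt2b34 (0.67) were also higher without overlap.

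Cyp2b genes were uneven between mice. Of these, Cyp2b13 was also a member of the list of female-biased growth hormone genes. Cyp2b10 stood at -0.55, 3.97 and 4.2 in vehicle mice and 1.19, 0.41 and 5.80 in IIAEK mice, and Cyp2b13 at -4.83, -3.81 and -4.51 and -4.11, -4.51 and 5.45, so IIAEK 3 was far above IIAEK 1 and 2. Of the Cyp2c genes, Cyp2c37 stood at 7.36, 3.96 and 2.71 and 6.81, 6.52 and 7.28, with vehicle 1 above the 3 IIAEK mice. The fitted changes of Cyp2b10 (-0.07, SE 1.75) and Cyp2c37 (2.19, SE 1.13) had wide errors.

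Clock genes had lower and higher values, with repressors on both sides. The circadian clock is a loop in which CLOCK and BMAL1 (Arntl) drive Per, Cry, Nr1d and Ciart through E-boxes, and the products of these genes repress the drivers. Of 24 tested clock and clock output genes, 7 were lower without overlap in IIAEK mice and 5 higher without overlap, against 5.85% and 7.08% of all genes, and 0 were called (5 lower and 6 higher at an unadjusted p under 0.05). As the changes ran both ways, the list median was 0.09 (-0.19 on slide 1 and 0.14 on slide 2). To show the element that the drivers bind, the 250 bases before the transcription start are given for a repressor with lower values (Ciart), another (Per1) and a repressor with higher fitted values (Cry1). Sequences are from RefSeq on GRCm38.p6, 5′ to 3′ on the strand of the gene, with each E-box (CACGTG) in capitals.
Ciart, chr3:95882229-95882478, minus strand: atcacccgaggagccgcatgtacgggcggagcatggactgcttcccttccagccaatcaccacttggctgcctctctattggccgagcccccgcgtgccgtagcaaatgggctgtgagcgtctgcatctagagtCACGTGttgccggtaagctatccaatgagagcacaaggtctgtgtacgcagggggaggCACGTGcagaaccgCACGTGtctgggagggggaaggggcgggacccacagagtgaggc
Per1, chr11:69098699-69098948, plus strand: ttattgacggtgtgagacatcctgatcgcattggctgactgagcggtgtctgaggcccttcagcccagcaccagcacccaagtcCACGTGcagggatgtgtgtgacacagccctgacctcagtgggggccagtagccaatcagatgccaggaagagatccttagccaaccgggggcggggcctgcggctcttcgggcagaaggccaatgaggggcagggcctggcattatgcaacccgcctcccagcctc
Cry1, chr10:85185055-85185304, minus strand: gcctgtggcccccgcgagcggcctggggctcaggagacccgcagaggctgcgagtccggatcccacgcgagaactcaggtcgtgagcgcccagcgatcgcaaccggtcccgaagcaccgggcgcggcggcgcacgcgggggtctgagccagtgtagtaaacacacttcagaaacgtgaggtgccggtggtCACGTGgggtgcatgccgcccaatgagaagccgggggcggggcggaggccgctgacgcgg
A second Per1 start in the table held no E-box. The motif reads the same on both strands, and such a match is no evidence of binding. It occurred in 5 of 20 clock genes with a promoter in the table (25.0%: Ciart with 3 copies, Per1, Cry1, Cipc and Tef with 1 each), in 1978 of 32851 windows of this length (6.02%) and in 1122 of 12148 tested genes (9.24%).

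Several repressors and outputs of the loop had lower values. Ciart, the repressor CHRONO, stood at -4.16, -1.47 and -2.52 in vehicle mice and -5.25, -5.53 and -5.26 in IIAEK mice, where 1 of 3 arrays was above background (fitted change -2.63, SE 0.76). Noct (nocturnin), a rhythmic phosphatase of liver, stood at 1.69, 3.06 and 2.53 and -0.47, 0.60 and -0.07 (-2.41, SE 0.63) and its second probe gave -2.52. Per2 stood at -0.81, 1.16 and 0.33 and -1.26, -1.18 and -1.10 (-1.41, SE 0.49), and Per1 at 2.56, 2.57 and 2.89 and 1.23, 2.54 and 1.90 (-0.78, SE 0.41). The ubiquitin protease Usp2 (-0.86), the repressor Bhlhe40 (-0.54) and REV-ERB beta (Nr1d2, -0.42) were lower in each IIAEK mouse too. REV-ERB alpha (Nr1d1), a repressor of the same loop, overlapped with a fitted change of the other sign (0.42, SE 0.50). For the output factor Dbp the vehicle mice spanned -0.02, 3.62 and 2.04 and IIAEK mice stood at 0.46, -0.01 and -0.50, with overlap.

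Other clock genes had higher values. Clock stood at 2.70, 1.94 and 1.79 in vehicle mice and 3.04, 2.86 and 2.95 in IIAEK mice (0.81, SE 0.25). The repressors Cipc (0.48, SE 0.19) and Cry2 (0.35, SE 0.22) were higher without overlap. The CLOCK paralog Npas2, counted as higher without overlap, was above background on 1 vehicle and 2 IIAEK arrays, so its place there rests partly on values below background. Arntl (1.21, SE 0.47), Cry1 (1.22, SE 0.41) and Nfil3 (1.45, SE 0.54) overlapped, with vehicle 1 among the IIAEK mice. The labels give no time of day for the collection, and its part in these values was not tested.

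**Figure D3:**
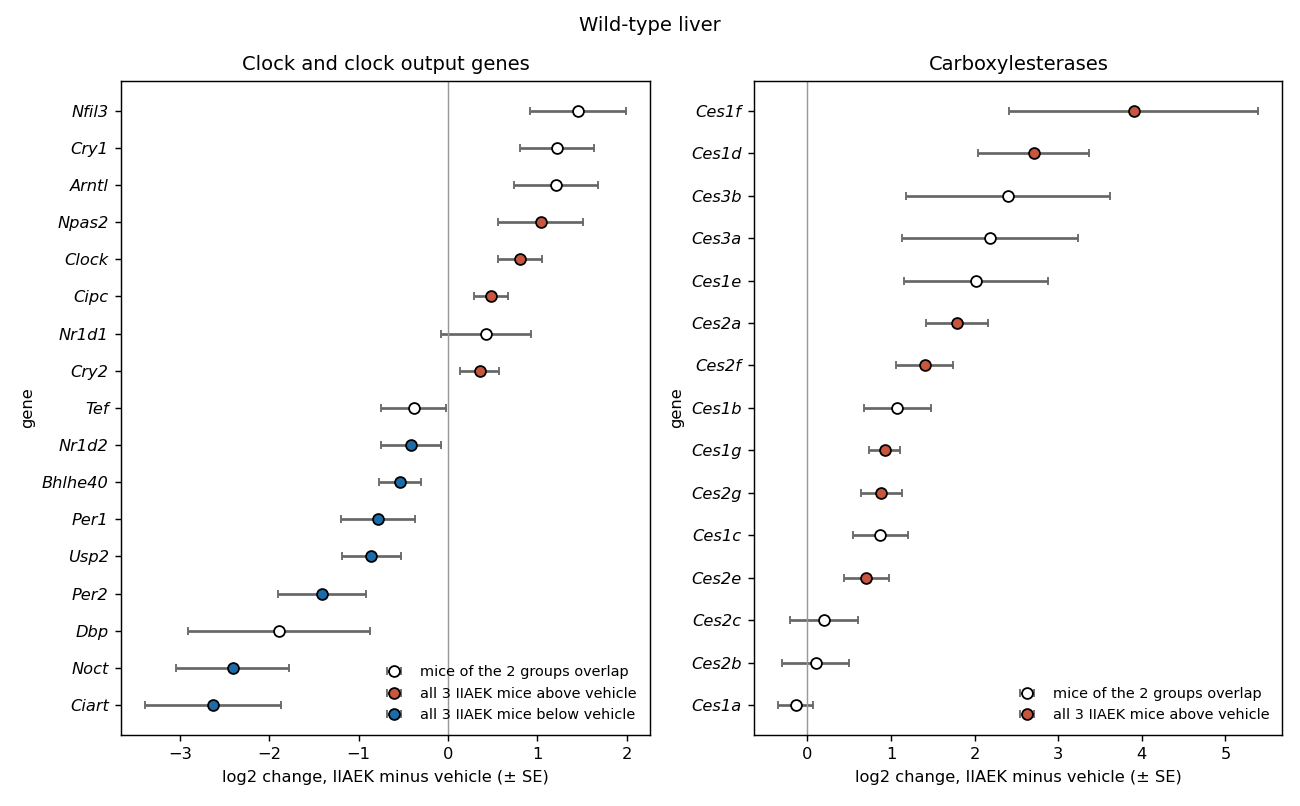
Log2 change (IIAEK minus vehicle, horizontal axis) with its SE for the clock genes named in the text and the 15 tested carboxylesterases of wild-type liver, filled where the 3 mice of each group did not overlap (Npas2 partly below background). Clock genes spread to both sides, from Ciart (-2.63) to Nfil3 (1.45), and carboxylesterases lie above 0 except Ces1a (-0.14).

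Immediate early genes, the first transcripts that growth and stress signals switch on, had lower values for 28 of 31, with 11 without overlap on the lower and 1 on the higher side (Gadd45g), against 5.85% and 7.08% of all genes, 0 called (16 lower and 1 higher at an unadjusted p under 0.05) and a median of -0.78. Egr1 stood at -1.04, 0.58 and 0.96 in vehicle mice and -2.74, -1.93 and -2.12 in IIAEK mice (-2.43, SE 0.63). Jun stood at 1.6, 2.93 and 2.86 and 0.83, 1.54 and 0.65 (-1.46, SE 0.42), Fos at -2.53, -0.18 and -0.29 and -3.48, -3.32 and -3.19 (-2.33, SE 0.75), and Klf4 at 0.02, 0.55 and 0.72 and -0.60, -0.80 and -0.86 (-1.18, SE 0.32). In all 4, vehicle 1 lay between the IIAEK mice and vehicle 2 and 3. Klf2 stood at 1.83, 1.19 and 1.85 and 1.03, 1.08 and 1.06 (-0.57, SE 0.21), where vehicle 1 stood with vehicle 3. The list median was -0.46 on slide 1 and -1.22 on slide 2, and without vehicle 1, 15 of the 31 were called lower and 1 higher (8.31% and 6.50% of all genes).

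NF-kappaB targets and cytokines had lower values for 23 of 29 (10 without overlap, 0 called and 15 at an unadjusted p under 0.05, median -0.93). Over all genes, 5.85% were lower without overlap and 6.81% lower at that p. The chemokine genes Ccl3 and Ccl4 stood at -3.72, -1.36 and -0.57 and -2.64, -0.30 and -0.18 in vehicle mice 1, 2 and 3 and at -5.47, -5.09 and -4.14 and -3.49, -4.32 and -2.87 in IIAEK mice, without overlap, and the platelet and endothelial adhesion gene Selp at -2.61, -3.03 and -2.78 and -3.16, -3.67 and -3.71 (-0.71, SE 0.20). Ccl3 was above background on 2 of 3 IIAEK arrays. For Ccl2, a chemokine that draws monocytes, vehicle 1 (-0.19) was within the IIAEK range and vehicle 2 and 3 (3.62 and 3.60) far above. Of the endotoxin sensing genes, Tlr2 stood at -0.24, 1.08 and 1.37 and -1.59, -1.09 and -0.56 (-1.82, SE 0.55), the endotoxin co-receptor Cd14 at 0.70, 2.92 and 3.04 and -0.06, 0.18 and 0.54 (-2.0, SE 0.69), and Acod1, which makes itaconate in macrophages, at -1.75, -1.89 and -0.59 and -4.11, -3.43 and -2.17 (-1.83, SE 0.67). That list as a whole was divided, with 9 of 19 higher and 10 lower (median -0.02).

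Extracellular matrix and fibrosis genes had lower values for 33 of 35, 7 of them without overlap (5.85% of all genes) and 0 called (16 at an unadjusted p under 0.05, against 6.81% of all genes, median -1.24). Vehicle 2 and 3 carried these differences. The median deviation was -0.56, 0.97 and 1.49 in vehicle 1, 2 and 3 and -0.55, -0.57 and -0.65 in IIAEK 1, 2 and 3, so vehicle 1 was level with the IIAEK mice. On slide 1 the list median was 0.04 and on slide 2 -1.86. Lysyl oxidase (Lox), which cross-links collagen, stood at -4.86, -1.30 and -1.41 in vehicle and -5.93, -5.09 and -5.33 in IIAEK mice, and fibrillin 1 (Fbn1) at -2.38, -0.63 and -0.19 and -2.63, -2.41 and -2.72. Lox was above background on 2 of 3 IIAEK arrays. Ccn2 was the gene of this list with the smallest p. Stellate cell and fibroblast markers, beside it, were lower for 14 of 15 (median -0.42, on slide 1 0.03), with the stellate cell globin Cygb at -0.95 (SE 0.31).

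Markers of macrophages and neutrophils were high in vehicle 2 and 3 too. Kupffer cell and macrophage markers were lower for 17 of 20 (0 without overlap, against 5.85% of all genes, median -0.65). Their medians were -0.44, 0.79 and 0.67 in vehicle mice and -0.74, -0.43 and 0.19 in IIAEK mice, so IIAEK 3 lay above vehicle 1. Marco, a scavenger receptor of Kupffer cells, stood at 3.40, 5.59 and 5.88 and 1.49, 1.64 and 3.53. The 8 tested neutrophil markers had medians of -0.80, 0.99 and 1.69 and -0.66, -0.85 and -0.09. The 17 T and NK cell markers had medians of -0.07, 0.24 and 0.58 and -0.71, -0.48 and 0.31, so IIAEK 3 lay above vehicle 2. Of the 12 tested MHC class II genes, 12 had lower values (2 without overlap, against 5.85% of all genes, median -0.78), with H2-Oa at -1.24 (SE 0.51). Bile duct markers were lower for 11 of 12 (median -0.92, on slide 1 0.06), with Cldn7 at -0.92 (SE 0.31). Hepatocyte markers, which check the tissue, were all well above background in the 14 genes tested and had a median change of 0.17 (-0.22 on slide 1 and 0.29 on slide 2). None of these markers was called, and the part of the cell markers in the lower values of matrix, chemokine and early response genes was not tested.

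**Figure D4:**
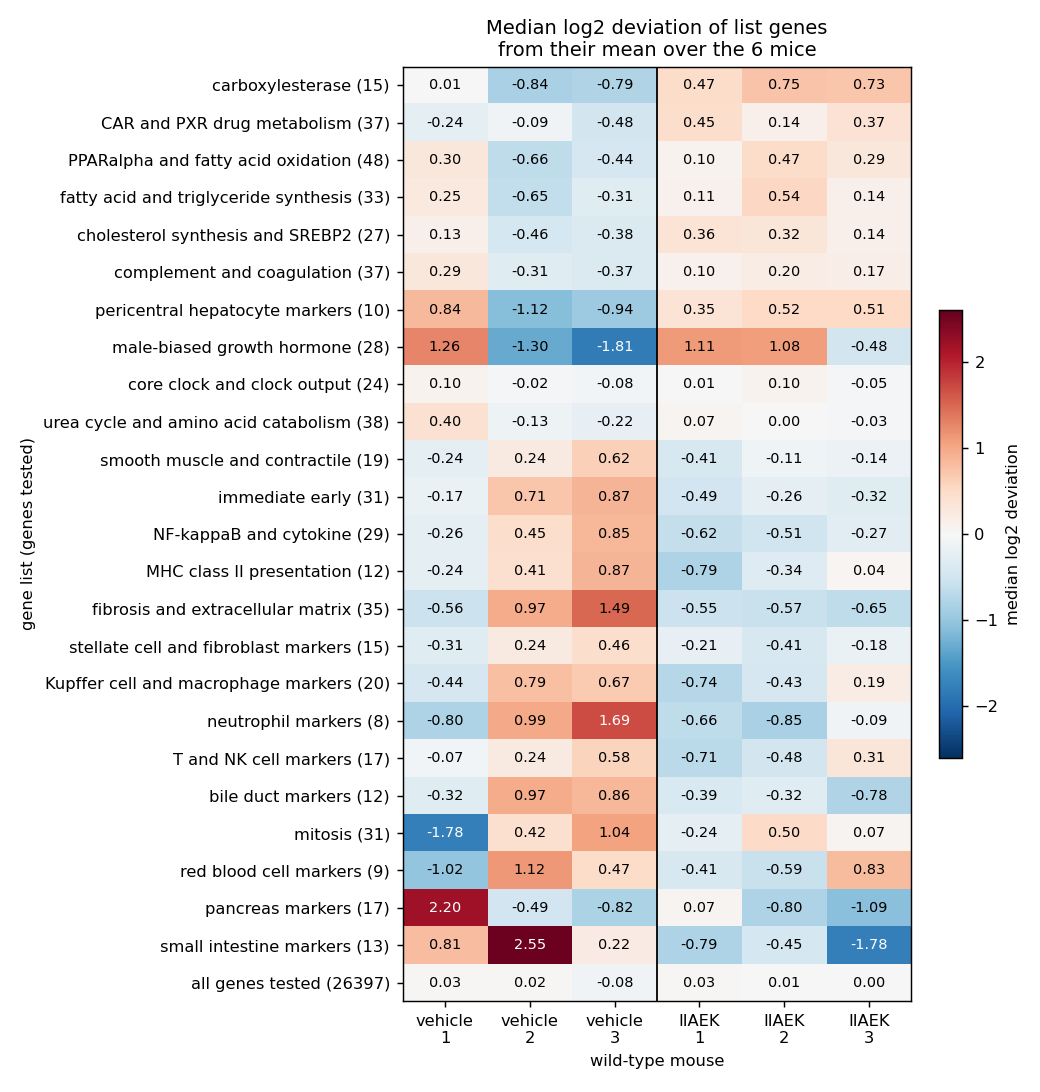
Median log2 deviation of the genes of 25 sets (24 lists and all genes tested, with the number tested) from their own mean over the 6 wild-type livers, 1 column per mouse, red for higher and blue for lower. Vehicle 2 and 3 stand apart from the other 4 mice for matrix genes (0.97 and 1.49) and pericentral markers (-1.12 and -0.94), vehicle 1 is alone for mitosis (-1.78) and pancreas (2.20), and carboxylesterases are above 0 in the 3 IIAEK mice.

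Lipid synthesis genes had higher values. Among 33 genes that build fatty acids and triglycerides, 27 were higher, 6 without overlap and 0 called (7 at an unadjusted p under 0.05, median 0.55, 0.01 on slide 1 and 0.90 on slide 2). The lipid droplet enzyme Pnpla3 stood at -5.20, -5.50 and -6.12 in vehicle mice, where 1 of 3 arrays was above background, and -3.95, -4.17 and -4.15 in IIAEK mice (1.52, SE 0.42), and its other probe gave -0.14. Thrsp stood at 1.26, 0.45 and -1.71 and 2.48, 1.6 and 1.5 (1.86, SE 0.93), with its second probe at 1.88. Cholesterol synthesis and SREBP2 genes were higher for 22 of 27, 8 without overlap and 0 called (7 at an unadjusted p under 0.05, median 0.54, 0.32 and 0.73 by slide). Beside both lists, 7.08% of all genes were higher without overlap and 5.75% were higher at that p. Hmgcs1, which makes HMG-CoA, stood at 4.18, 2.68 and 2.87 and 4.53, 4.96 and 5.04 (1.6, SE 0.45), and Idi1, which isomerises isopentenyl diphosphate, at 1.59, 1.40 and 0.52 and 2.72, 2.17 and 2.26 (1.21, SE 0.43). Insig1, the sterol-regulated brake on SREBP, stood at -1.48, -2.12 and -2.16 and -0.75, -0.98 and -0.86 (1.06, SE 0.31). Fdps (0.95), Cyp51 (0.82), Nsdhl (0.76), Fdft1 (0.57) and Sc5d (0.54), enzymes further down the pathway, were also higher without overlap.

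PPARalpha targets and fatty acid oxidation genes, which the fasted liver uses to burn fat, were higher for 40 of 48, with 6 without overlap (7.08% of all genes), 0 called (12 at an unadjusted p under 0.05) and a median of 0.57. The pantetheinase Vnn1 stood at 1.65, 0.74 and 0.86 in vehicle mice and 2.29, 3.11 and 3.26 in IIAEK mice (1.81, SE 0.46), and Decr1, a mitochondrial reductase of unsaturated fatty acyl-CoA, at 6.64, 6.41 and 5.89 and 6.94, 6.80 and 6.93 (0.58, SE 0.20). The carnitine palmitoyltransferase Cpt1b of muscle differed by 0.72 (SE 0.25). The direction of the list differed between slides, at -0.35 on slide 1 and 1.0 on slide 2.

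Genes of bile acid and sterol handling were mixed. Cyp7a1, whose product limits the rate at which cholesterol becomes bile acid, stood at -0.60, 0.35 and -2.52 in vehicle mice and -6.20, -4.19 and -7.65 in IIAEK mice. It was above background on 3 of 3 vehicle arrays and 1 of 3 IIAEK arrays with lower values on both slides (-5.61 and -4.84). Its fitted change of -5.09 (SE 1.27, limma adjusted p = 0.395) rests partly on values below background. Cyp8b1, which sets the share of cholic acid, was above background on 1 of 3 arrays of each group (vehicle 1 and IIAEK 2), so no change was measured. Of the 31 bile acid genes, 20 had higher and 11 lower values (median 0.12, -0.12 on slide 1 and 0.39 on slide 2). Without overlap stood 1 higher and 1 lower, against 7.08% and 5.85% of all genes. The bile salt export pump Abcb11 was higher in each IIAEK mouse by a small step (0.30, SE 0.16). The receptor FXR (Nr1h4) had vehicle mice at 5.09, 4.22 and 3.56 and IIAEK mice at 5.09, 4.93 and 5.04, and its target SHP (Nr0b2) differed by 0.21 (SE 0.29). The sterol exporters Abcg5 (-0.11, SE 0.16) and Abcg8 (0.34, SE 0.39) and apolipoprotein A-I (Apoa1, 0.21, SE 0.20) overlapped between groups. Alkaline phosphatase of liver (Alpl) stood at 0.45, 1.22 and 1.57 and 0.53, 0.78 and 0.30, with vehicle 1 inside the IIAEK range.

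Amino acid catabolism and fasting genes were also mixed. Of the 38 urea cycle and amino acid genes, 19 had higher and 19 lower values (median 0.01, -0.28 on slide 1 and 0.21 on slide 2), and 8 were lower without overlap against 1 higher, with 0 called (6 lower and 1 higher at an unadjusted p under 0.05). Over all genes, 5.85% were lower and 7.08% higher without overlap, and 6.81% lower and 5.75% higher at that p. Tyrosine aminotransferase (Tat), a glucocorticoid and fasting response gene, stood at 7.68, 6.95 and 7.13 in vehicle mice and 6.28, 6.22 and 5.80 in IIAEK mice, with vehicle 1 the highest (-1.16, SE 0.33). Serine dehydratase Sds stood at 4.94, 5.29 and 5.31 and 4.67, 4.18 and 4.38 (-0.77, SE 0.32) and alanine aminotransferase Gpt2 at 4.48, 4.31 and 4.79 and 3.90, 4.24 and 4.0 (-0.48, SE 0.20). The amino acid list ran from -1.16 (Tat) to 1.53 (Glul). Outside both lists, Asns, the asparagine synthetase that amino acid limitation induces, stood at 0.75, 2.38 and 2.34 and -0.26, 0.72 and -2.13 (-2.38, SE 0.69). Of the 38 genes of gluconeogenesis, fasting and insulin, 23 had higher and 15 lower values (median 0.12, -0.33 on slide 1 and 0.33 on slide 2). Without overlap stood 1 higher and 3 lower, against 7.08% and 5.85% of all genes. The genes of this list ran from -1.81 (Igfbp1) to 2.05 (Ppp1r3c, which targets a phosphatase to glycogen). The IGF-binding protein gene Igfbp1, which fasting and stress induce in liver, stood at 6.44, 7.21 and 7.78 and 4.66, 6.08 and 5.27 (-1.81, SE 0.59) and was similar by slide (-1.78 and -1.82). Igfbp3 differed by -0.49 (SE 0.20), nearly all of it on slide 2 (-0.71, against -0.04 on slide 1). Cish, a feedback inhibitor of growth hormone signalling, was higher in each IIAEK mouse (-0.84, 0.82 and 0.80 in vehicle and 1.26, 1.62 and 1.22 in IIAEK mice).

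Pericentral hepatocyte markers had a list median of 1.04, higher in 8 of 10 with 0 without overlap (7.08% of all genes). Glutamine synthetase (Glul), found in the hepatocytes around the central vein, stood at 5.86, 2.6 and 2.58 in vehicle mice and 4.81, 5.55 and 5.27 in IIAEK mice, so that vehicle 1 was the highest mouse and vehicle 2 and 3 the lowest. The list went to -0.62 on slide 1 and 1.63 on slide 2. Male-biased liver genes, which follow pulsed growth hormone, also changed sign by slide (median 0.99, -0.19 on slide 1 and 1.79 on slide 2). Of 28 tested, 27 were higher but 1 without overlap (7.08% of all genes). Their median deviation was 1.26, -1.30 and -1.81 in vehicle mice and 1.11, 1.08 and -0.48 in IIAEK mice, so IIAEK 3 lay apart from IIAEK 1 and 2. The 23 female-biased genes had a median change of 0.19, with deviations of -0.66, 0.42 and 0.20 in vehicle mice and -0.48, -0.66 and 0.82 in IIAEK mice. Mitosis genes were lowest in vehicle 1 (median deviation -1.78) and had a median change of 0.15, at 1.40 on slide 1 and -0.42 on slide 2.

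RGS genes were mixed. Of 16 tested, 11 had lower and 5 higher values, Rgs3 among these (median -0.67, -0.11 on slide 1 and -0.96 on slide 2, and -0.34 with the normexp correction). Rgs9 stood at -3.42, -3.05 and -2.71 in vehicle mice and -4.34, -3.85 and -3.82 in IIAEK mice (-0.95, SE 0.26) and was alike on both slides (-0.93 and -0.95). Rgs17, above background on 2 vehicle arrays and 0 IIAEK arrays, was at least 2.39-fold lower. Its vehicle mean rests partly on a value below background. Of the aquaporins, Aqp1 was higher in each IIAEK mouse beside Aqp8 (0.45, SE 0.19). The mannose-binding lectins of the complement list, Mbl2 (7.29, 7.20 and 6.86 in vehicle and 7.88, 7.72 and 8.22 in IIAEK mice) and Mbl1 (0.97, SE 0.40), were higher without overlap, and 29 of 37 genes of that list had higher values (median 0.37). The complement median had the other sign on slide 1 (-0.24, against 0.70 on slide 2) and was 0.10 without wild-type vehicle 3. Of the heat shock genes, Fkbp4 differed by 0.51 (SE 0.17), and the list by a median of 0.12 (-0.21 on slide 1 and 0.26 on slide 2). Interferon-stimulated genes were even, with 14 of 28 higher (median 0.00, -0.23 on slide 1 and 0.22 on slide 2). Small differences of 1 sign were those of oxidative phosphorylation (32 of 32 higher, median 0.20) and the proteasome (26 of 26, median 0.19). In the former list 1 gene was higher without overlap, against 7.08% of all genes. Ribosomal protein genes stood at -0.08 (0.28 on slide 1 and -0.27 on slide 2).

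In Akp3-/- mice the same treatment called 0 genes (0%; limma, 3 mice per group from the same fit), and 1706 genes had an unadjusted p under 0.05 (6.46%). Tagln stood at 2.79, 2.56 and 2.72 in knockout vehicle mice and 2.80, 2.53 and 2.62 in knockout IIAEK mice (change -0.04, SE 0.15). The difference of both changes was 1.39 (SE 0.21, unadjusted p = 3.9e-05) and did not pass over all genes (limma adjusted p = 0.514). Of all genes, 0 passed this test of the difference and 426 (1.61%) had an unadjusted p under 0.05. Gadd45g stood at 4.83, 4.95 and 4.23 and 3.80, 3.62 and 3.46 in knockout mice, lower with IIAEK where wild-type mice were higher (difference -2.36, SE 0.32, adjusted p = 0.489). Cyp3a11 (-0.51, SE 0.25, in knockout) and Lncbate1 (0.41, SE 0.26) also had the opposite sign, and Ces2a (0.18) and Ces1g (-0.02) were near 0, all with an adjusted p for the difference of 1. Aqp8 stood at a change of 1.19 in wild type and 1.48 in knockout, and Ankrd9 at 0.79 and 0.69. As the test of the difference called no gene, none of these genes is shown to depend on the genotype.

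**Figure D5:**
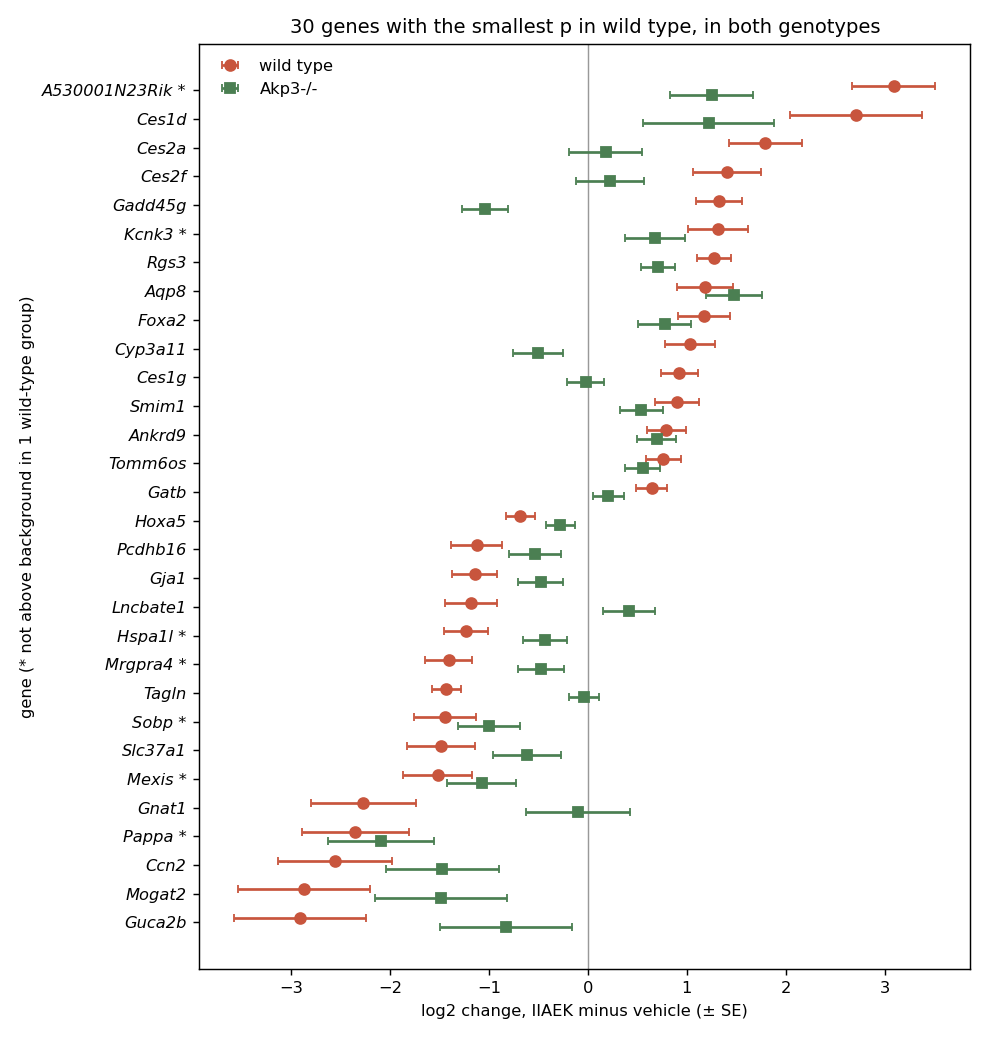
Log2 change with IIAEK (horizontal axis, ± SE from limma) for the 30 genes with the smallest p in wild type, with circles for wild type and squares for Akp3-/- (n = 3 mice per group), and an asterisk where a wild-type group was not above background. Tagln lies at -1.43 in wild type and -0.04 in knockout, Gadd45g at 1.32 and -1.04, and Aqp8 at 1.19 and 1.48.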

How the data were processed

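Liver RNA of 12 mice (4 groups of 3) was read on one-colour Agilent mouse arrays. The deposited files hold the processed signal intensity of each spot, background-subtracted by Agilent Feature Extraction 10.7.3.1, per the file headers. The deposited series table holds log2 values of the same arrays. They correlated at 0.9997 to 0.9999 with the scanner values once each probe was centred on its median over the 12 arrays, so scale, centring and direction were settled. Its column medians ran from -0.154 to 0.172.

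Control spots were left out, log2 signals were set against the 75th percentile of each array, and spots of a probe were averaged. Of 56588 probes, 32983 were named by accession through RefSeq (GRCm38.p6, names and promoters only, as the array was designed on mm9) and the brightest probe stood for a gene. A gene was tested if every array of 1 group or more had it well above background (26397 genes, 15324 with a symbol). limma 3.58.1 in R 4.3.3 fitted 1 mean per group over all 12 arrays, with the Benjamini-Hochberg adjustment and a threshold of 0.05. Fits were tested on simulated data. The p-values measure the spread between 3 mice per group.

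Members and lists were chosen with earlier results of these data known, and 1 wrong entry was taken off the cholesterol list after its values were seen. Named genes are those past the threshold, the 15 of smallest p and the 10 of largest change without overlap per direction, the 4 of smallest p per list, and 14 genes of bile acid, sterol and phosphatase handling. Other list members were chosen after their values were seen, and some genes that the rule names are not reported here. Alternatives covered background correction, scaling, the deposited table, filters, probe choice, slide, replicate block, array weights and left-out arrays.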

Additional observations from a re-analysis of the deposited data

Results flagged for a closer look

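In 6 genes named above, all 3 IIAEK mice lay on one side of the vehicle mice in wild type and on the other side in Akp3-/- mice. The difference between genotypes had an unadjusted p under 0.05 in limma for each, but passed over all genes in none. These genes were picked for this pattern, so that p is no support, and 1.61% of all genes had such a p. The share of all genes with the pattern was not counted. The difference (knockout change minus wild-type change) was -2.36 for Gadd45g (1.32 in wild type, -1.04 in knockout, adjusted p = 0.489). It was -1.54 for Cyp3a11, -1.45 for Cyp3a16 and -1.28 for Cyp3a59, close paralogs that their probes may read together (-0.51, -0.49 and -0.40 in knockout). It was -1.25 for Cpt1b (0.72 in wild type, -0.53 in knockout) and 0.84 for Igfbp3 (-0.49 and 0.36). Dixon's test for a single outlying value was not run, since groups of 3 mice are too small for it.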

How the results depend on the processing

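The arrays limit these results through 3 mice per group and through vehicle 1, which stood with the IIAEK mice. Tagln was the 1 gene called under the normexp background correction, quantile normalization, the deposited series table, the filter on all 12 arrays, the mean over probes, and limma's trend and robust options. With no filter on dim probes 2 genes were called. No gene (0) was called with the 6 wild-type arrays only, the slide as a block, slide 2 alone, array weights or the replicate number as a block, although 2435 to 7248 genes had an unadjusted p under 0.05 there. Leaving out single arrays gave 0 to 3909 calls, with 3909 only without wild-type vehicle 1, 2 without knockout vehicle 2 (Tagln and A530001N23Rik, adjusted p = 0.0257), and 1 that was not Tagln without wild-type vehicle 3. The change of Tagln was -1.43 with the 6 wild-type arrays only (limma adjusted p = 0.530), with the slide as a block (0.0704) and with the replicate number as a block (0.271), -1.33 on slide 2 alone (0.111), -1.39 with array weights (0.0623), -1.54 without the vehicle arrays set apart (wild-type 2 and 3, knockout 1 and 3) (0.0938), and -1.54 to -1.36 without single arrays. Same-numbered vehicle and IIAEK arrays had deviations that correlated at 0.166, -0.295 and 0.298. As deviations from means of 3 mice, these values cannot decide whether the numbers paired the mice. The replicate block changed no other call. The difference between genotypes for Tagln stayed 1.39 and not past the threshold with the slide as a block.

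Of 154 genes named, 98 that were not called passed the threshold without wild-type vehicle 1, where 6.50% of all genes were called higher and 8.31% lower. Many of the 154 were chosen for their values on the same arrays, so this count is a description. List medians moved by more than the spread between mice in 35 of 50 lists without the vehicle arrays set apart, in 32 on slide 1 alone, in 13 on slide 2 alone and in 10 without wild-type vehicle 1. The sign of the log2 change turned for the following genes, none of them called, and the cause was not tested. On slide 1 alone it turned for Abcg5 (0.082), Abcg8 (-0.47), Alpl (0.076), Anpep (-0.57), Apoa1 (-0.035), Arntl (-0.23), Ces3a (-0.57), Ces3b (-0.77), Cry1 (-0.37), Csrp1 (0.10), Cyp2b10 (1.74), Cyp2c37 (-0.55), Dbp (0.49), Glul (-1.05), Lgals4 (-0.49), Mttp (-0.44), Nfil3 (-0.31) and Tef (0.032). Without the vehicle arrays set apart it turned for Abcg8 (-0.65), Alpl (0.084), Anpep (-0.16), Apoa1 (-0.17), Ces3a (-0.58), Ces3b (-0.66), Csrp1 (0.24), Cyp2b10 (3.01), Cyp2c37 (-0.49), Dbp (0.0055), Glul (-0.65), Lgals4 (-0.40), Mttp (-0.066), Myh11 (0.12), Nr0b2 (-0.27), Nr1h4 (-0.066) and Tagln2 (0.14). With the normexp background correction (offset 50) it turned for Ces1a (0.028) and Lgals4 (-0.0034). After quantile normalization it turned for Ces1a (0.027) and Lgals4 (-0.073). On slide 2 alone it turned for Ces2b (-0.12), Ces2c (-0.026) and Cyp8b1 (2.79). With array weights it turned for Ces2b (-0.026) and Cyp8b1 (1.23). Leaving out single arrays it turned for Abcg5 (-0.25 to 0.029), Abcg8 (-0.058 to 0.84), Anpep (-0.18 to 0.34), Ces2b (-0.21 to 0.62), Ces2c (-0.13 to 0.67), Cyp2b10 (-1.74 to 0.96), Cyp8b1 (-1.86 to 2.0) and Lgals4 (-0.10 to 0.24). The normexp correction used median spot and background signals. Slide 1 alone has 1 array per group and gave values with no test.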

Other observations

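Acute phase genes, which the liver secretes in inflammation, had higher values for 10 of 27 (median -0.19, -0.48 on slide 1 and -0.19 on slide 2). Targets of NRF2, the sensor of oxidative stress, were higher for 22 of 32 (6 higher and 0 lower without overlap, against 7.08% and 5.85% of all genes, 0 called, median 0.18). Genes of the unfolded protein response stood at a median of 0.13 over 29 genes (-0.12 on slide 1 and 0.21 on slide 2), with 1 lower and 1 higher without overlap, and Asns was among the lower ones. Iron genes stood at 0.07 (21 genes, -0.10 on slide 1 and 0.17 on slide 2) and liver endothelial markers at 0.25 (19 genes, -0.25 on slide 1 and 0.51 on slide 2). DNA replication genes, at -0.08 over 34 genes, had medians of -0.31, 0.34 and 0.14 in vehicle mice and -0.07, -0.01 and 0.02 in IIAEK mice. Red blood cell markers stood at 0.01 (9 genes), but the median was 0.92 within slide 1, -0.49 within slide 2 and -0.85 when wild-type vehicle 1 was left out, so the sign turned with the mice used. B and plasma cell markers stood at -0.28 (-0.45 on slide 1 and -0.17 on slide 2).

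Single mice also stood out within their group for some genes, and the cause was not tested. Pancreas markers were high in vehicle 1 (median deviation 2.20), against -0.49 and -0.82 in vehicle 2 and 3 and 0.07, -0.80 and -1.09 in IIAEK mice. Cyp8b1, an enzyme of cholic acid synthesis, was near or above a log2 level of -2.78 in vehicle 1 and IIAEK 2 and at -7.62 or below in the remaining wild-type mice. Cyp2b13 stood at 5.45 in IIAEK 3 and at -3.81 or below in the remaining wild-type mice.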
